A study of Homo sapiens with 8 samples.

Results

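GMDS and MGAT5 encode enzymes of glycosylation, and their RNA was examined for enrichment by an RBPMS antibody in human embryonic stem cells. The members are the peaks that overlapped, on the strand of the gene, the hg19 interval from 1624 to 2246 kb on chromosome 6 (minus strand, GMDS) or from 134877 to 135213 kb on chromosome 2 (plus strand, MGAT5). They number 193 of the 194003 peaks in the 4 lists, 89 in GMDS and 104 in MGAT5. Both genes were chosen with their deposited folds over input known, so those folds and the counts made from them are a description and carry no test.

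RBPMS is an RNA-binding protein known for regulating splicing in smooth muscle, and it recognises RNA that carries CAC repeats of short spacing. GMDS is GDP-mannose dehydratase, which makes the first intermediate on the way from GDP-mannose to GDP-fucose, the sugar donor of all fucosyltransferases. MGAT5 is a Golgi N-acetylglucosaminyltransferase that adds a further branch to N-linked glycans, on which galectin ligands are built. In eCLIP, ultraviolet light joins protein to RNA, the protein is immunoprecipitated, and the RNA that comes with it is sequenced beside an input that was not immunoprecipitated.

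The cells of all 8 libraries were HUES6, a human embryonic stem cell line, labelled WT for genotype and control for treatment and grown in FTDA medium. Dishes held about 20M cells and received 400 mJ/cm2 of UV; 4 libraries were made with an RBPMS-specific antibody and 4 input libraries with no antibody. Each eCLIP library has 1 peak list with the authors' log2 fold and −log10 p against input, and the inputs enter only through these values. A fold is measured over a whole dish, so binding in more cells and more binding per cell cannot be told apart. Peak lists do not measure RNA levels, so the markers of the cell type were not checked.

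Libraries 1 to 4 listed 25759, 118375, 20254 and 29615 peaks. Reads could be worked back for most peaks, with a median of 3 or 4 immunoprecipitation reads per peak. Library 2 thus stood apart by the length of its list. Over 348 shared peaks the reads of libraries 3 and 4 agreed within sampling noise (chi-square divided by its degrees of freedom 1.02, chi-square test, p = 0.41), whereas the other 5 pairs had ratios of 6.63 to 12.5. These libraries were therefore treated as 1 sample. A mean ± SD below is over n = 3 samples: library 1, library 2 and the mean of libraries 3 and 4. Separate cultures are not named in any label, and the spread between libraries may thus be technical.

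In GMDS, the peaks at least 8-fold over input (log2 fold of at least 3, with −log10 p of at least 3, called enriched here) all lay in a single stretch of 1991 bases. It runs from 2200379 to 2202369 on chromosome 6, minus strand, and takes up 0.32% of the 622 kb interval. It begins 43.6 kb from the upstream edge of the interval and leaves 576 kb of it downstream. Library 1 listed 8 peaks in GMDS and all 8 were enriched, and libraries 2 to 4 had 13 of 54, 8 of 14 and 9 of 13. Over all genes, 15.9%, 5.38%, 12.6% and 12.7% of the listed peaks of libraries 1 to 4 passed the same thresholds; the gene was chosen on this measure, so nothing is read from the difference. The mean was 9.83 ± 2.75 enriched peaks (SD, n = 3).

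MGAT5 showed the same layout at a higher fold. Of its 41 enriched peaks, 40 lay in 1518 bases, from 134908579 to 134910096 on chromosome 2, plus strand, or 0.45% of the 336 kb interval. This stretch begins 31.6 kb from the upstream edge, with 303 kb of the interval downstream of it. Of the listed peaks, 11 of 17, 13 of 63, 8 of 13 and 9 of 11 were enriched in libraries 1 to 4, with a mean of 10.8 ± 2.25 (SD, n = 3). The one enriched peak outside the stretch was in library 1, 1.23 kb from the upstream edge (134878231 to 134878311), with a log2 fold of 4.47 from 7 immunoprecipitation reads and 1 input read. At the same place library 3 had 2.67 and library 2 had -0.35, and library 4 listed no peak. Unlike the stretch, this peak was therefore not seen as enriched in a second library.

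No exon or intron was assigned to either stretch, since no gene models of build hg19 were used here. No filter for repeated sequence was applied to the peaks either.

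**Figure D1:**
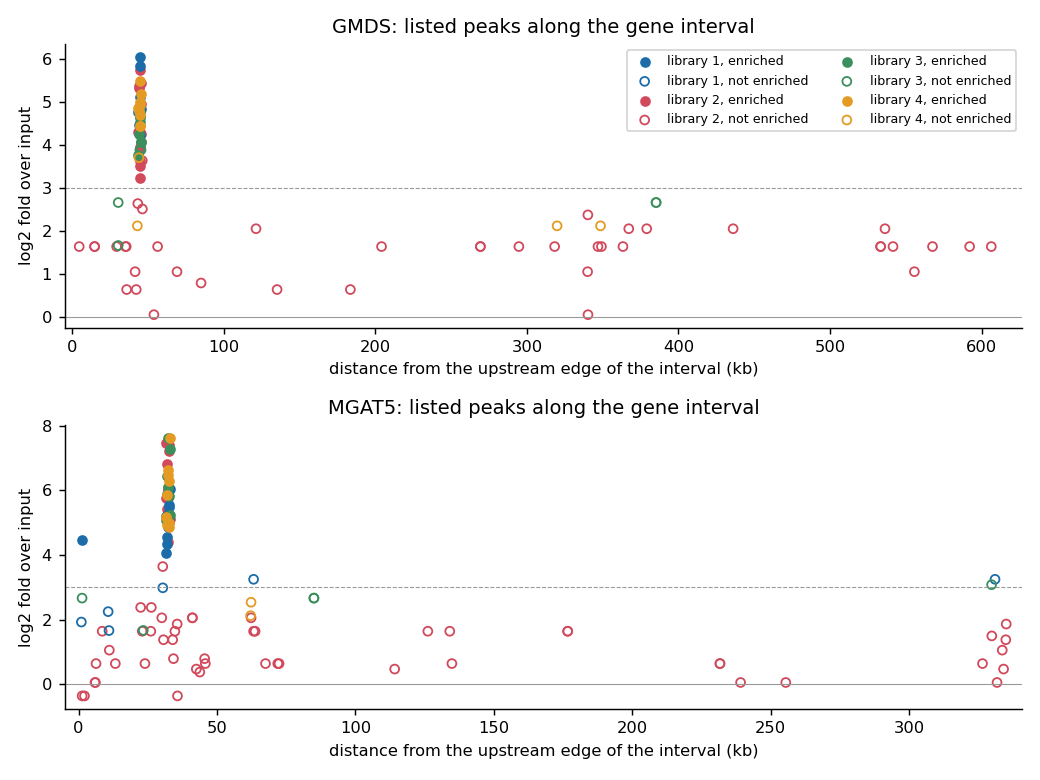
Log2 fold over input of every listed peak (vertical axis) against its distance in kb from the upstream edge of the gene interval (horizontal axis), for GMDS above and MGAT5 below; filled points are enriched peaks, open points are other listed peaks, colours mark the library, and the dashed line is a log2 fold of 3. Filled points stand in 1 column per gene, about 44 kb into GMDS and 32 kb into MGAT5, apart from 1 library 1 point at the start of MGAT5.

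The peaks outside the stretches lay unevenly along both genes, and most rested on few reads. In library 2 they were denser toward the upstream edge in both genes. GMDS had 51 listed peaks that were not enriched, 3 of them inside the stretch. Their median log2 fold was 1.65, from 0.06 to 3.89, and 40 of them had at most 4 immunoprecipitation reads. Library 2 contributed 41 of the 51, and these lay all along the interval, from 4.54 to 606 kb from its upstream edge. MGAT5 had 63 such peaks, none inside its stretch, with a median log2 fold of 1.65, from -0.35 to 3.65. Of the 63, 38 had at most 4 immunoprecipitation reads, and for 9 the reads could not be worked back. Library 2 held 50 of the 63, and 3 of the 50 lay below input.

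In library 2, the only one with many peaks elsewhere, the 13 enriched GMDS peaks together had 491 immunoprecipitation reads, and the 39 of 41 peaks outside the stretch whose reads could be worked back had 165. The corresponding figures in MGAT5 were at least 2679 reads in 13 peaks and 198 reads in 42 of 50 peaks. A read that spans neighbouring peaks may be counted in both, so these sums are not numbers of molecules. They cover reads in listed peaks only. Enriched peaks also need many reads to pass the thresholds, so the direction was largely set by the definition.

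The last 10 kb of MGAT5, at its downstream edge, held 1, 7, 1 and 0 listed peaks in libraries 1 to 4. None was enriched. The log2 fold was 3.25 in library 1 and 3.09 in library 3, which met the fold threshold. These peaks missed that of p, with a −log10 p of 1.35 and 1.41. They rested on 3 and 4 immunoprecipitation reads over 1 input read. Library 2 ranged from 0.06 to 1.87. The last 10 kb of GMDS held no listed peak in any library. The downstream end of either gene thus had no enriched peak in any of the 4 libraries.

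All members lay on the strand of their gene because the rule asks for it, but the other strand of the same intervals is independent of the rule. It held 0 listed peaks in all 4 libraries in both genes. A count of 0 beside the 54 and 63 peaks of library 2 allows a share of up to 5.56% in GMDS and 4.76% in MGAT5, and the shorter lists allow 17.6% to 37.5%; these limits cover counting error only. The neighbouring intervals of equal length held no peak on the strand of the gene either. On the other strand, the interval before GMDS listed 3, 24, 3 and 5 peaks with none enriched. The interval after MGAT5, where TMEM163 is the next protein-coding gene in the order of RefSeq (GRCh38.p14), listed 4, 16, 3 and 6 on the other strand, of which 0, 4, 2 and 2 were enriched.

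Enriched peaks that overlapped by 1 base or more, from whichever library, were joined into regions, and those with an enriched peak from 3 or more of the 4 libraries are called reproducible. GMDS had 11 merged regions, 8 of them reproducible, and 5 of these were enriched in all 4 libraries. MGAT5 had 10 merged regions, of which 7 were reproducible and 6 were enriched in all 4. In the series, 22.7% of the 7472 merged regions were reproducible and 12.6% were enriched in all 4 libraries. With libraries 3 and 4 joined, all 8 and all 7 reproducible regions were enriched in all 3 samples. Asking for all 4 libraries lowered the GMDS count from 8 to 5, and library 3 was the missing library in each of the 3 regions lost.

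In the stretch of GMDS the regions formed 3 groups with gaps of over 200 bases between them. The upstream group, 2202001 to 2202369, held 9 enriched peaks, the middle group, 2201024 to 2201555, held 22, and the downstream group, 2200379 to 2200735, held 7. All 4 libraries had enriched peaks in each group. The middle group held 5 of the 8 reproducible regions within 532 bases. The largest gap between neighbouring merged regions was 445 bases in GMDS and 144 bases in MGAT5, so the MGAT5 stretch had no such division.

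**Figure D2:**
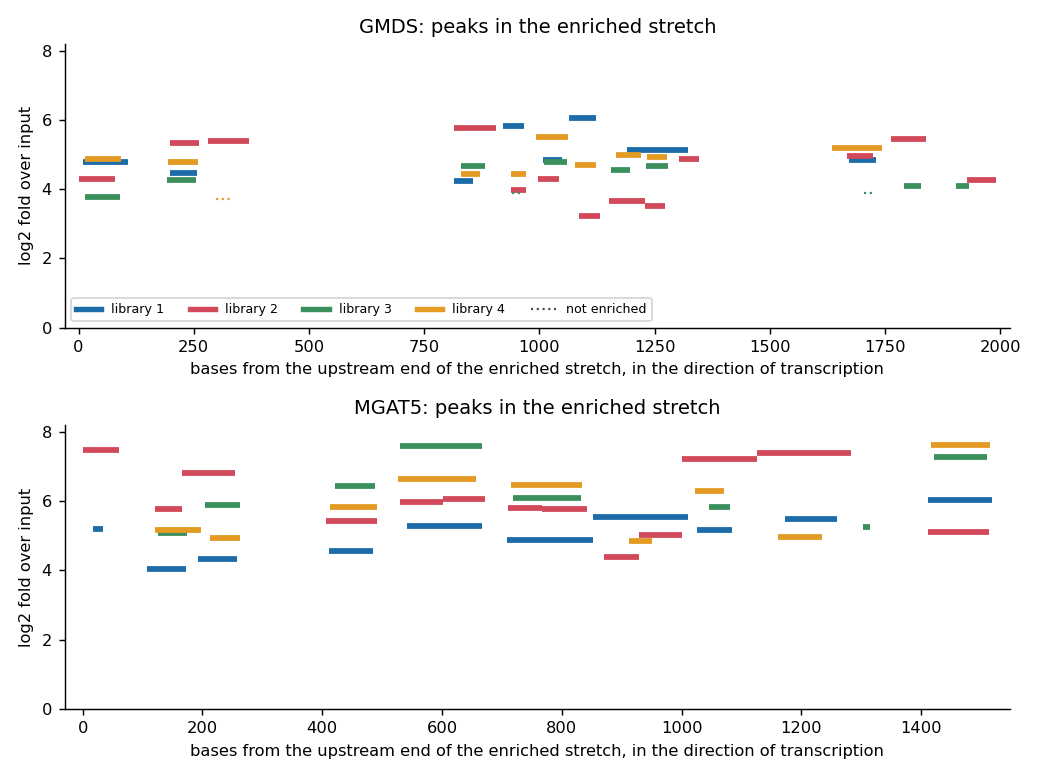
Extent of each peak in the enriched stretch (horizontal axis, bases from the upstream end of the stretch in the direction of transcription) and its log2 fold over input (vertical axis), coloured by library, with peaks that were not enriched dotted. GMDS shows 3 groups of peaks, and MGAT5 shows 1 group whose folds reach 7.62.

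At the level of single bases, enriched peaks of at least 1 library covered 48.5% of the span of the GMDS reproducible regions, and 12.8% of it (223 bases) was covered in all 4 libraries. In MGAT5, 76.3% was covered by at least 1 library and 35.0% (493 bases) by all 4. Peaks were thus more widely shared base by base in MGAT5, where each also rests on more reads, a factor whose part was not tested. The median width of enriched GMDS peaks was 59.5, 62.0, 48.0 and 54.0 bases in libraries 1 to 4, against 75, 89, 80 and 81 over all enriched peaks of these libraries. In MGAT5 it was 81.0, 73.0, 62.0 and 77.0 bases. GMDS peaks were narrower than the median enriched peak in each of the 4 libraries, and MGAT5 peaks in 3 of them; this was not tested.

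By position, every enriched GMDS peak of library 1 (8 of 8) and of library 4 (9 of 9) overlapped an enriched peak of library 2. Of the 13 in library 2, the number that overlapped an enriched peak of libraries 1, 3 and 4 was 10, 8 and 9. All 8 of library 3 were matched in library 2 and 6 of the 8 in library 1. In MGAT5, 10 of 11 enriched peaks of library 1 and 9 of 9 of library 4 overlapped one of library 2, and 13 of library 2's 13 overlapped one of library 1. Library 3, with the fewest reads per peak, had 7 of its 8 MGAT5 peaks matched in each other library. The short lists were thus nearly contained in the list of library 2. The reverse held for 10 of 13 peaks in GMDS and 13 of 13 in MGAT5 when library 1 is taken. It held for 8 and 9 of 13 in GMDS, and 9 and 12 of 13 in MGAT5, against libraries 3 and 4.

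The reproducible regions of GMDS had mean log2 folds of 5.03, 4.59, 4.43 and 4.87 in libraries 1 to 4, where the value for library 3 covers the 5 regions it had enriched. Their mean was 4.76 ± 0.23 (SD, n = 3), which is 27.0-fold over input. Over all reproducible regions of the series the same means were 4.79, 4.85, 4.90 and 4.96. Ranked among the 1699 reproducible regions by mean log2 fold over samples, the 8 GMDS regions lay between the 38.8th and the 64.8th percentile. In height, then, these regions were in the middle of the series.

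Where library 3 had no enriched peak, library 4 alone stood for the third sample. This holds for the downstream end of the reproducible run, 2200627 to 2200735, whose log2 folds in libraries 1, 2 and 4 were 4.84, 4.97 and 5.19, a mean of 5.0 ± 0.18 (SD, n = 3). Library 3 listed a peak there at 3.89 whose −log10 p of 2.70 missed the threshold, and with that value the mean was 4.78 ± 0.22. The widest region, 195 bases from 2201024 to 2201218, had 5.13, 4.87, 4.67 and 5.0 in libraries 1 to 4, a mean of 4.94 ± 0.16. Each is the highest of the library's enriched peaks in the region, and by their median the mean was 4.52 ± 0.78. No order of these GMDS regions by mean is therefore drawn.

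The region from 2201465 to 2201555 had log2 folds of 4.25, 5.76, 4.67 and 4.45, a mean of 4.86 ± 0.80 (SD, n = 3), with library 2 highest. The region from 2202109 to 2202177 had 4.47, 5.35, 4.26 and 4.79, a mean of 4.78 ± 0.49. At 2201308 to 2201377 the values were 4.84, 4.31, 4.79 and 5.50, a mean of 4.76 ± 0.42. Which library was highest changed from region to region: of the 8 regions, 3 were highest in library 1, 2 in library 2 and 3 in library 4.

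The region from 2201399 to 2201447 had 5.84, 3.97 and 4.45 in libraries 1, 2 and 4, with library 3 at 3.89 and short of the p threshold. Its mean was 4.75 ± 0.97 (SD, n = 3) without library 3 and 4.66 ± 1.03 with that value. The upstream end of the run, 2202263 to 2202369, had the lowest mean, 4.47 ± 0.27, from 4.78, 4.31, 3.79 and 4.86. The region with the widest spread, named after its values were seen, was 2201238 to 2201305, with 6.06, 3.23 and 4.71 in libraries 1, 2 and 4 and a mean of 4.67 ± 1.41. Library 1 was the highest there and library 2 the lowest.

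The reproducible regions of MGAT5 had mean log2 folds of 5.16, 6.26, 6.53 and 6.15 in libraries 1 to 4, over 6 of the 7 regions in library 3. Their mean was 5.92 ± 0.66 (SD, n = 3), which is 60.6-fold over input. All 7 had a mean above the median of the series' reproducible regions (4.71), from the 79.0th to the 94.5th percentile, and 4 of the 7 were in the highest 10%. In 5 of the 7 regions library 1 had the lowest log2 fold, and in none the highest.

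The widest MGAT5 region, 273 bases from 134909431 to 134909703, also had the highest mean, 6.27 ± 0.85 (SD, n = 3), from 5.54, 7.21, 5.84 and 6.30 in libraries 1 to 4. These are the highest of several peaks in the region, and by their median its mean was 5.36 ± 0.34, which ranked 6 of 7. The downstream end of the run, 134909990 to 134910096, had 6.05, 5.12, 7.29 and 7.62, a mean of 6.21 ± 1.18 by either measure. Library 2, which was highest in the widest region, was lowest at the downstream end.

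At 134909105 to 134909249 the log2 folds were 5.28, 6.07, 7.61 and 6.63, a mean of 6.16 ± 0.92 (SD, n = 3). The region from 134909704 to 134909860 was enriched in libraries 1, 2 and 4, at 5.47, 7.41 and 4.98, a mean of 5.95 ± 1.28. Library 3 listed no peak that overlaps it, and its peak of 12 bases at 134909882 to 134909893 (log2 fold 5.26) lies just downstream. Only in library 3 did this region lack an enriched peak.

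The region from 134909288 to 134909430 had 4.88, 5.80, 6.11 and 6.47, a mean of 5.66 ± 0.72 (SD, n = 3). The upstream end of the run, 134908687 to 134908841, had 4.35, 6.81, 5.89 and 5.17, a mean of 5.56 ± 1.23. The remaining region, 134908986 to 134909069, had a mean of 5.38 ± 0.80. In these 3 regions library 1 was the lowest of the 4 libraries.

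**Figure D3:**
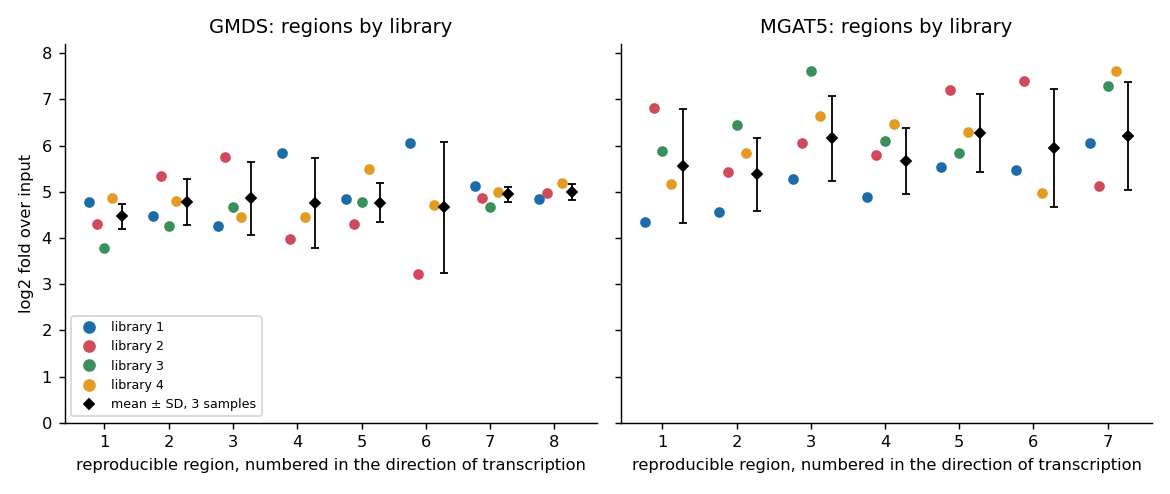
Log2 fold over input (vertical axis) of each reproducible region, numbered in the direction of transcription (horizontal axis), in GMDS on the left and MGAT5 on the right; coloured points are the libraries, and diamonds with bars are the mean ± SD over 3 samples. GMDS means lie between 4.47 and 5.0 and MGAT5 means between 5.38 and 6.27.

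Set side by side, the log2 fold of MGAT5 regions exceeded that of GMDS regions by 0.14, 1.67, 2.10 and 1.28 in libraries 1 to 4, a mean of 1.16 ± 0.89 (SD, n = 3). MGAT5 was thus higher in all 4 libraries, which count as 3 samples here, with library 1 far below the others. The 2 genes were chosen on these folds, so the difference was not tested. An input of 1 read, as fitted or as the lowest fitting number, limits a fold to what the immunoprecipitation reads allow. It underlay 2 of 8, 6 of 13, 7 of 8 and 9 of 9 enriched GMDS peaks in libraries 1 to 4. In MGAT5 it underlay 1 of 11, 2 of 13, 6 of 8 and 4 of 9. The part of this limit in the difference was not tested.

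The reads behind the peaks differ between the genes. Among the enriched GMDS peaks with reads worked back exactly, immunoprecipitation reads had a median of 18 in library 1 (12 to 26), 38 in library 2 (28 to 52), 11.5 in library 3 (8 to 13) and 20 in library 4 (15 to 31). Input reads were 1 to 3, 1 to 4, 1 to 2 and 1. An input of 1 read, which cannot be told apart from 0, underlay 2 of 7, 6 of 13, 7 of 8 and 9 of 9 of these peaks. In libraries 3 and 4 the GMDS folds therefore follow the immunoprecipitation reads almost alone, and a change of 1 input read would move them.

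In MGAT5 the exact immunoprecipitation reads ran from 7 to 132, 142 to 267, 18 to 32 and 40 to 42 in libraries 1 to 4. They were exact for 7 of 11, 5 of 13, 4 of 8 and 2 of 9 enriched peaks. For 20 further peaks, with a −log10 p at 15.7 where many values of the lists stop, only a lower limit could be given, between 35 and 325 reads. The other 3, all in library 1, had a −log10 p of 400, the highest value in the lists. Among peaks with exact reads, input reads reached 13 in library 1, 8 in library 2 and 2 in libraries 3 and 4. In library 4 the lowest fitting pairs reached 3 input reads, at 134908700 to 134908776 and at 134909740 to 134909812. The 3 library 1 peaks without reads are not covered by these numbers. RNA of this stretch was thus present in input as well. Counting lowest fitting pairs too, 1 input read underlay 1 of 11, 2 of 13, 6 of 8 and 4 of 9 enriched MGAT5 peaks in libraries 1 to 4.

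**Figure D4:**
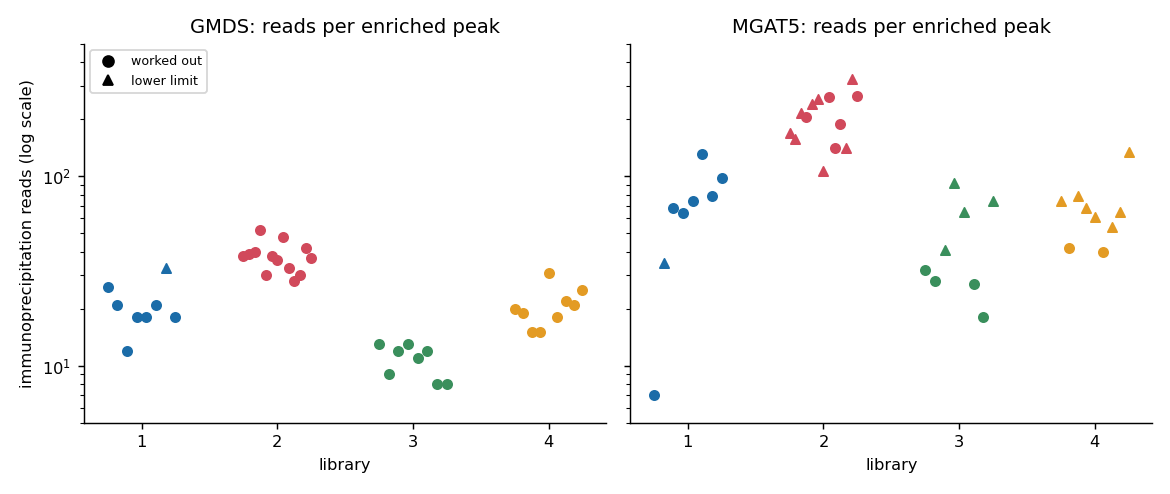
Immunoprecipitation reads per enriched peak (vertical axis, log scale) by library (horizontal axis), in GMDS on the left and MGAT5 on the right; circles are reads worked back exactly and triangles are lower limits, and 3 MGAT5 peaks of library 1 without reads are not drawn. GMDS peaks lie between 8 and 52 reads, and MGAT5 peaks reach at least 325.

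Some peaks stood close to the thresholds. Just inside, library 3 had 2 GMDS peaks with a log2 fold of 4.09 and a −log10 p of 3.15, from 8 reads over 1. Just outside were a GMDS peak of library 2 at 2199790 to 2199860 (3.65, −log10 p 2.82, 12 reads over 1) and one of library 4 at 2202037 to 2202071 (3.71, −log10 p 2.71, 9 reads over 1). In MGAT5 the nearest miss was at 134907371 to 134907475 in library 2 (3.65, −log10 p 2.82), just over 1 kb before the stretch. These 3 met the fold threshold and missed that of p. The reverse held for a GMDS peak of library 2 at 2202751 to 2202817, with a log2 fold of 2.65 and a −log10 p of 3.16 from 18 reads over 3.

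The reproducible regions of each gene formed 1 run, with gaps of at most 1 kb between neighbours: 8 regions in 1743 bases of GMDS and 7 in 1410 bases of MGAT5. The midpoints of neighbouring regions were a median of 150.5 bases apart in GMDS, from 71.0 to 633, and 211.5 bases apart in MGAT5, from 149.5 to 263.5. Of the 1049 runs in the series, 701 held a single region, 5 others held at least as many as GMDS and 11 others at least as many as MGAT5. The longest held 17. Among stretches of the genome of the gene's own length on 1 strand that held a listed peak, 24 of 5735 had at least 8 reproducible regions, and 32 of 8166 had at least 7. Only 762 of the 5735 and 819 of the 8166 held any reproducible region. Both genes were proposed from these data, so their place in these orders is a description.

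**Figure D5:**
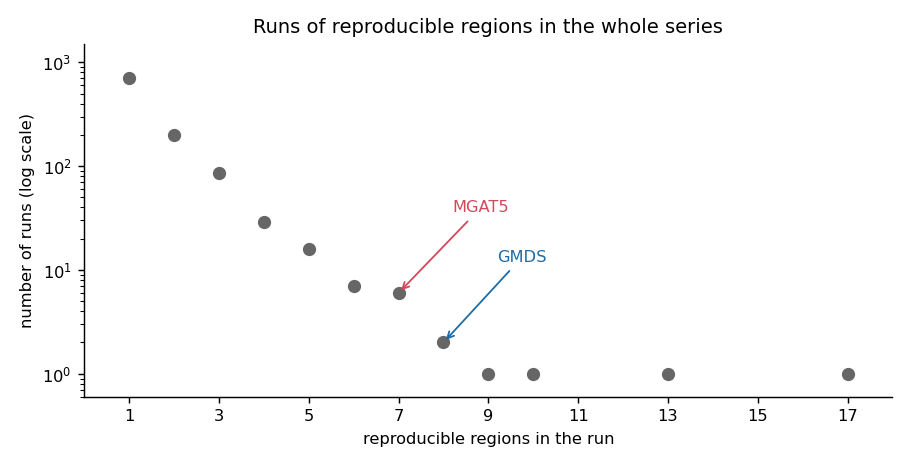
Number of runs (vertical axis, log scale) by the reproducible regions each holds (horizontal axis) over the whole series; arrows mark the points that include the runs in GMDS and MGAT5. The GMDS run is 1 of 2 with 8 regions and the MGAT5 run is 1 of 6 with 7, and 4 runs are longer than both.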

How the data were processed

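Peak lists of 4 eCLIP libraries were used. Per the labels, coordinates are on build hg19. The deposited values are the authors' −log10 p and the authors' log2 fold of immunoprecipitation over input, identified from the values, since the lists have no header. The tools for alignment and peak calling, and the input library set against each list, were not given in the sources used here. Peaks were called per library, as the separate lists show.

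The steps below used Python 3.11.15, pandas 2.3.3, numpy 2.4.6 and scipy 1.17.1. Reads per peak were worked back from both values: the log2 fold fits a ratio of whole read numbers scaled by a depth ratio (input over immunoprecipitation 3.18, 1.04, 2.12 and 1.46 in libraries 1 to 4). The p fits a continuity-corrected chi-square test, and Fisher's exact test if either number is below 5, to a relative tolerance of 0.003. Reads were returned for at least 94.2% of peaks with log2 above 0 and −log10 p from 0.1 to the ceiling of 15.7; it assumes those tests and counts an input of 0 as 1. Total reads per library are not known. At the ceiling the lowest fitting pair is given as a limit. Libraries were compared by chi-square tests of reads over peaks with at least 80% overlap, at least 40 reads in both together and −log10 p of at least 1. Merging and reads were tested on simulated data.

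Regions named are the 6 highest by mean log2 fold, the widest and the outermost of each gene, and others where stated. A region's value in a library is its highest enriched peak. The genes, thresholds and rules were chosen with earlier results of these data known. Other genes of the pathways were not placed, for want of hg19 gene positions. Alternatives were other thresholds, overlaps, numbers of libraries, and each library left out.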

Additional observations from a re-analysis of the deposited data

Results flagged for a closer look

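Of 19 quantities compared over the 4 libraries, 2 had 1 library far from the other 3 by Dixon's criterion for 4 values. At 1 in 20, 0.95 would be flagged if the 4 libraries and the 19 quantities were independent. Libraries 3 and 4 were treated as 1 sample above, so this number is only a rough guide. Library 2 listed 54 peaks in GMDS, where the others listed 8 to 14, and its distance to the nearest made up 0.87 of the whole range. It listed 63 in MGAT5, where the others listed 11 to 17, with 0.88 of the range. Library 2 also has the longest list of the series, 118375 peaks, against 25759, 20254 and 29615 in libraries 1, 3 and 4. The counts compared here were not scaled to the length of the list. They therefore do not show that library 2 had a larger share of its peaks in either gene. The part of list length in these counts was not tested. Numbers of enriched peaks, with 13 in library 2 in each gene, did not stand apart in this way.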

How the results depend on the processing

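Of 70 values recomputed under alternatives for 10 results, 67 stayed within 1.5 times the main count or within 1 SD of the main log2 fold. Mean listed peaks ranged from 10.8 to 33.8 in GMDS and from 14.5 to 37.5 in MGAT5 with each library left out; the lowest values, 10.8 and 14.5, were without library 2, against 25.2 and 30.7 with all libraries. Reproducible regions in GMDS were 5 for all 4 libraries. Dropping any 1 library, with 2 of the rest sufficing, gave 8 to 11 in GMDS and 8 in MGAT5. The mean log2 fold stayed between 4.62 and 4.84 in GMDS and between 5.75 and 6.30 in MGAT5, the latter without library 1. Taking each library's highest listed peak in a region, enriched or not, an alternative chosen after seeing the data, gave 4.73 in GMDS and 5.92 in MGAT5. No paired analysis was possible because no result here comes from a test between groups. Depth limits the folds of both genes: 1 input read, as fitted or as the lowest fitting number, underlay 7 of 8 GMDS and 6 of 8 MGAT5 enriched peaks in library 3, and 9 of 9 and 4 of 9 in library 4.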
